A study of Rattus norvegicus with 6 samples.

Results

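The genes described here control how a cell passes through G1, the phase between division and the next round of DNA synthesis. They are the D-type cyclins Ccnd1, Ccnd2 and Ccnd3, their kinase partners Cdk4 and Cdk6, the growth-promoting transcription factor Myc, and the inhibitors Cdkn1a (p21), Cdkn1b (p27), Cdkn1c (p57) and Cdkn2a (p16 and ARF). They were chosen by name from a count table of 34225 loci, in which each of the 10 symbols labels 1 locus. A filter on low counts kept 16398 loci for testing, and 9 of the 10 genes were among them. Cdkn2a was not.

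Growth factor signals raise D cyclins and Myc in many cell types. D cyclins switch on CDK4 and CDK6, which phosphorylate the retinoblastoma protein and so free E2F transcription factors to start the genes of DNA synthesis. The Cip/Kip proteins p21, p27 and p57 bind cyclin-kinase complexes and mainly restrain CDK2, whereas p16 blocks CDK4 and CDK6 directly. In skin these genes are studied in the basal layer of the epidermis and in the hair follicle, whose matrix divides rapidly while the hair grows.

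Back skin of Sprague-Dawley rats, an outbred laboratory strain, was profiled by RNA sequencing, with 2 libraries per group. Afatinib, a covalent inhibitor of the ERBB receptor kinases, was given by mouth at 30 mg/kg once a day until a rash appeared. Gefitinib, which reversibly blocks the kinase of EGFR, the epidermal growth factor receptor, was given in the same way at 80 mg/kg, and the third group was untreated. The doses thus differ between the inhibitors, and the times may differ, since the sources used here give neither the days to the rash nor the ages and sexes. Nothing in the labels says that the libraries of a group came from different animals, so p-values measure only the spread between libraries. Totals ran from 17206456 to 22086673 counts per library.

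The libraries of a group were not alike in their tissue make-up. The summed level of 9 hair matrix and cortex markers was 292 and 1479 CPM, a count relative to the library total, in the afatinib libraries, 1724 and 1200.2 CPM with gefitinib and 19.5 and 83.1 CPM in untreated skin. Of 16 listed skeletal muscle markers 13 were in the table, and they summed to 159776 and 35720.4 CPM with afatinib, 36251 and 73660.5 CPM with gefitinib and 258754 and 230446 CPM in untreated skin. Afatinib replicate 1 thus stood nearer to untreated skin than the other rash libraries in both sums. In whole skin, fewer cells of a type and less RNA per cell cannot be told apart. All CPM values are scaled between libraries by the trimmed mean of M values (TMM), and each test is the edgeR quasi-likelihood test with Benjamini-Hochberg adjustment over all tested loci at a threshold of 0.05.

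One upstream sequence is shown, that of Cdk4, the only gene with a match among those searched. CACGTG is the E-box that MYC with its partner MAX is known to bind. The sequence is the 250 bases before the RefSeq start of rat Cdk4 in build GRCr8, chr7:64771203-64771452 on the plus strand, written 5′ to 3′. Capitals mark CACGTG, which appears 3 times, and 1 match to CTTTGAT, a TCF/LEF-type motif, on the minus strand (ATCAAAG).
Cdk4 upstream: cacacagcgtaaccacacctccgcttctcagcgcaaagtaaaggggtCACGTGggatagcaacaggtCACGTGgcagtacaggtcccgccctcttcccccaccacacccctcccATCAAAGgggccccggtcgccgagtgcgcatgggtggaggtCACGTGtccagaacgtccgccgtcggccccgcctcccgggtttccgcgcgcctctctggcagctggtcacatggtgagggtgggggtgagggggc
The search covered 5 motifs on both strands (CACGTG, the AP-1 motif TGACTCA, the E2F motifs TTTCCCGC and TTTGGCGC, and CTTTGAT) in windows from 250 bases before to 50 bases after each start. At least 1 CACGTG was present in 6.42% of 33469 rat promoter windows, and 3 or more in 0.0568%. The RefSeq table held 5 of the 10 genes by symbol. None of the 5 motifs was found in the windows of Ccnd3, Cdkn1a, Cdkn1b and Cdkn2a, which says only that these letters are not in those windows. Such matches are descriptions, and nothing about binding follows from them. An action of MYC on Cdk4 was not tested. The windows of Ccnd1, Ccnd2, Cdk6, Myc and Cdkn1c were not used here.

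Rash skin carried more Ccnd1, Cdk4 and Myc mRNA and less Cdkn1c mRNA than untreated skin when both drugs were averaged. These calls were lost with either untreated library left out, but a fit with 1 untreated library calls few loci of any kind. The log2 fold changes of Ccnd1, Cdk4 and Myc were 1.72, 0.98 and 0.91 without untreated replicate 1. Without untreated replicate 2 they were 2.30, 1.18 and 1.12. That of Cdkn1c was −0.50 without untreated replicate 1, −1.97 without untreated replicate 2 and −1.41 with both. Of the 9 genes tested in this comparison, 3 rose and 1 fell, against a background in which 11.0% of all loci rose and 4.93% fell. The median log2 fold change of the 9 genes was 0.76, and that of all loci was 0.06. For gefitinib alone 4 genes rose and 0 fell, where 12.3% of loci rose and 5.45% fell, and for afatinib alone 1 rose and 0 fell, where 3.60% of loci rose and 0.372% fell. Without an adjustment for the number of loci, 7, 6 and 7 of the 9 genes had p under 0.05 in the mean, gefitinib and afatinib comparisons, as did 35.2%, 37.2% and 21.9% of all loci. DESeq2 called 5, 5 and 3 of the 9 in the same order, and 25.9%, 28.6% and 12.1% of all loci. Limma-voom called 3, 3 and 0 of the 9, and 12.0%, 15.6% and 0.207% of all loci. Limma on log2(FPKM + 0.1) ended all 4 gefitinib calls (adjusted p = 0.051 for Ccnd1, 0.107 for Ccnd2, 0.0607 for Cdk4 and 0.0608 for Myc). It also ended the afatinib call of Ccnd1 (0.118) and the averaged calls of Cdk4 (0.08), Myc (0.0716) and Cdkn1c (0.139). The comparisons of either drug share their untreated libraries and are not independent.

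**Figure D1:**
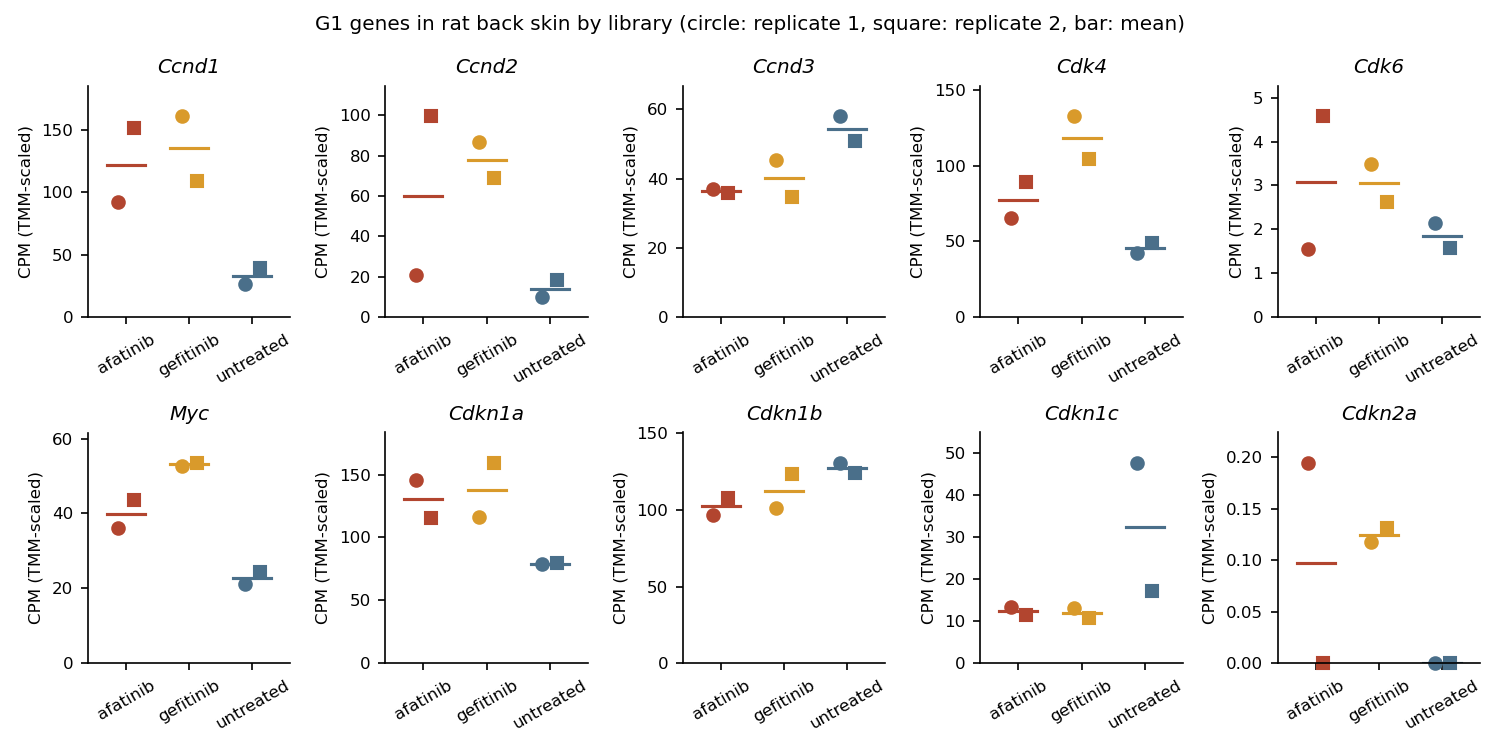
TMM-scaled CPM of the 10 genes in each library, with afatinib, gefitinib and untreated skin from left to right; circles are replicate 1, squares replicate 2 and bars the mean of 2 libraries. In Ccnd1 every rash library (92.2 to 161 CPM) lies above both untreated libraries (26.1 and 39.0 CPM), whereas the afatinib libraries of Ccnd2 lie far apart (20.7 and 99.7 CPM).

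**Figure D2:**
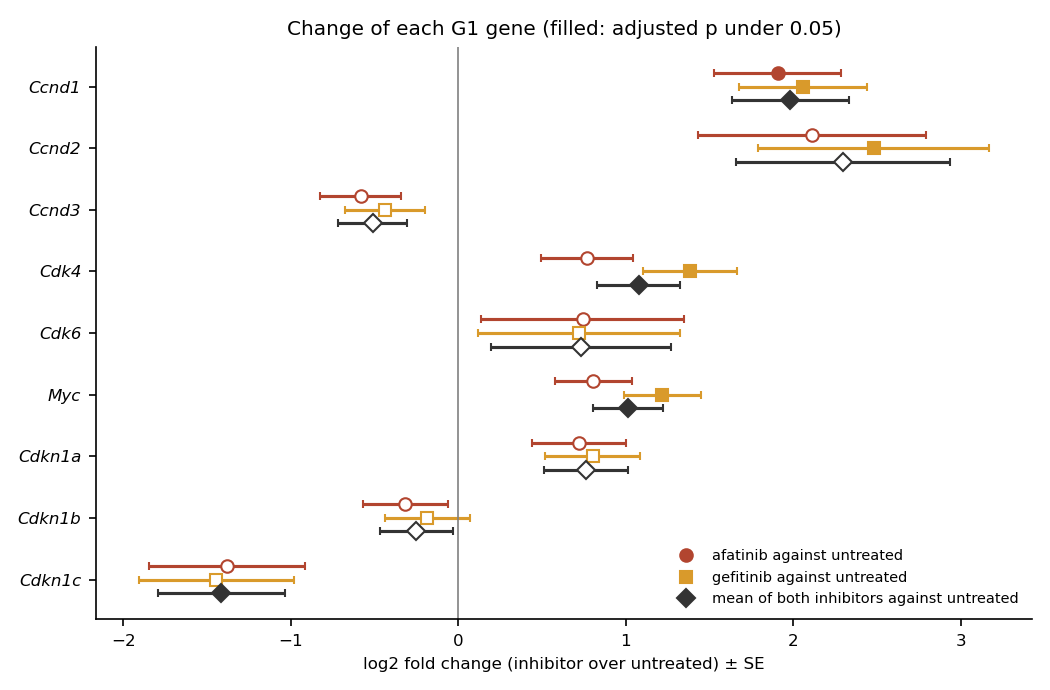
Log2 fold change of the 9 tested genes over untreated skin, with its standard error, for afatinib, gefitinib and the mean of both; filled symbols have an adjusted p under 0.05. Ccnd1 is filled in all 3 comparisons, and Ccnd3, Cdkn1b and Cdkn1c lie left of 0.

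Ccnd1 (ENSRNOG00000020918, chromosome 1, 218090750 to 218100325 on the minus strand in the files' coordinates, whose build the sources used here do not name) encodes cyclin D1, the D cyclin most often tied to growth factor signalling. Its level was 92.2 and 152 CPM in afatinib replicates 1 and 2, 161 and 109 CPM in gefitinib replicates 1 and 2, and 26.1 and 39.0 CPM in the untreated replicates. The lowest rash library stood above the higher untreated one, and the groups did not overlap. Ccnd1 rose 3.95-fold in the mean of both drugs, a log2 fold change of 1.98 ± 0.35 (SE; edgeR adjusted p = 0.0166). With gefitinib it rose by 2.06 ± 0.38 (edgeR adjusted p = 0.0175) and with afatinib by 1.91 ± 0.38 (edgeR adjusted p = 0.0431) on the log2 scale. With 1 library left out, the averaged value ran from 1.71 (without afatinib replicate 2) to 2.30 (without untreated replicate 2). The gefitinib value ran from 1.69 (without gefitinib replicate 1) to 2.38 (without untreated replicate 2). The afatinib value ran from 1.44 (without afatinib replicate 2) to 2.23 (without untreated replicate 2). Calls are not read from these fits, which leave 1 library in a group. With the replicate number as a block the afatinib adjusted p was 0.0628, and limma-voom gave 0.075. Limma on log2(FPKM + 1) gave 0.0892 and on log2(FPKM + 0.1) 0.118, so the afatinib call was lost there too.

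Ccnd2 (ENSRNOG00000057710, chromosome 4, 159674885 to 159697207) encodes cyclin D2. It stood at 20.7 and 99.7 CPM with afatinib, 86.9 and 68.9 CPM with gefitinib, and 9.75 and 18.1 CPM in untreated skin. Afatinib replicate 1 was only just above the higher untreated library, while the other 3 rash libraries were far above it. Ccnd2 rose 5.58-fold with gefitinib (log2 fold change 2.48 ± 0.69, edgeR adjusted p = 0.0486). This call was lost without gefitinib replicate 1 (0.137) or 2 (0.125), or untreated replicate 1 (0.219) or 2 (0.157), and limma-voom gave an adjusted p of 0.067. The afatinib value of 2.11 ± 0.68 did not pass (edgeR adjusted p = 0.131), and it was 2.83 without afatinib replicate 1 (adjusted p = 0.00553) and 0.51 without replicate 2 (0.635). The averaged value was 2.29 ± 0.64 and did not pass (edgeR adjusted p = 0.051). It passed with the replicate block (adjusted p = 0.0426), with library size only (0.0279), with no filter (0.000191) and with DESeq2 (0.000919). It did not pass with limma-voom (0.0809), DESeq2 size factors (0.0524), or limma on log2(FPKM + 1) (0.0879) or log2(FPKM + 0.1) (0.12). With 1 library left out, the averaged value ran from 1.46 (without afatinib replicate 2) to 2.81 (without untreated replicate 2). Hair markers set the libraries apart in a like way, lowest in untreated skin, then 292 CPM in afatinib replicate 1, then 1200.2 to 1724 CPM in the other 3, and their part in the Ccnd2 values was not tested.

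Ccnd3 (ENSRNOG00000050258, chromosome 9, 15404822 to 15410943) encodes cyclin D3. Its level was 36.8 and 35.8 CPM with afatinib, 45.5 and 34.8 CPM with gefitinib and 58.1 and 50.8 CPM in untreated skin, so every rash library was below both untreated ones. The averaged log2 fold change was −0.51 ± 0.20 and did not pass (edgeR adjusted p = 0.122). Scaled by library size only, a setting that moved the median of all loci to 0.72 in this comparison, the value for Ccnd3 was 0.14, or −0.57 relative to that median.

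Per length, Ccnd3 had the largest share of D cyclin transcripts in both untreated libraries and in none of the rash libraries. FPKM values here are counts divided by gene length and by 1 divisor per library, proportional to a DESeq2 size factor. They allow levels of different genes to be set side by side within a library. Ccnd3 made up 33.4% and 14.6% of the summed D cyclin FPKM with afatinib, 18.7% and 19.1% with gefitinib, and 69.1% and 53.7% in untreated skin. The mean share was 21.5% ± 8.22 in the 4 rash libraries and 61.4% ± 10.8 in the 2 untreated ones (SD), with no overlap. Ccnd1 took 33.6% ± 5.28 in the rash libraries and 17.8% ± 3.58 in untreated skin (n = 4 and 2), with no overlap. Ccnd2 took 45.0% ± 13.3 and 20.8% ± 7.25 in the same groups, and here afatinib replicate 1 (25.4%) fell below untreated replicate 2 (25.9%). An exact two-sided permutation test over 4 against 2 libraries gave p = 0.133 for Ccnd1 and for Ccnd3, the smallest it can give, and 0.267 for Ccnd2 (exact permutation test). The 3 genes together reached 56.4 and 122 FPKM with afatinib, 124 and 94.9 FPKM with gefitinib, and 44.4 and 50.2 FPKM in untreated skin.

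**Figure D3:**
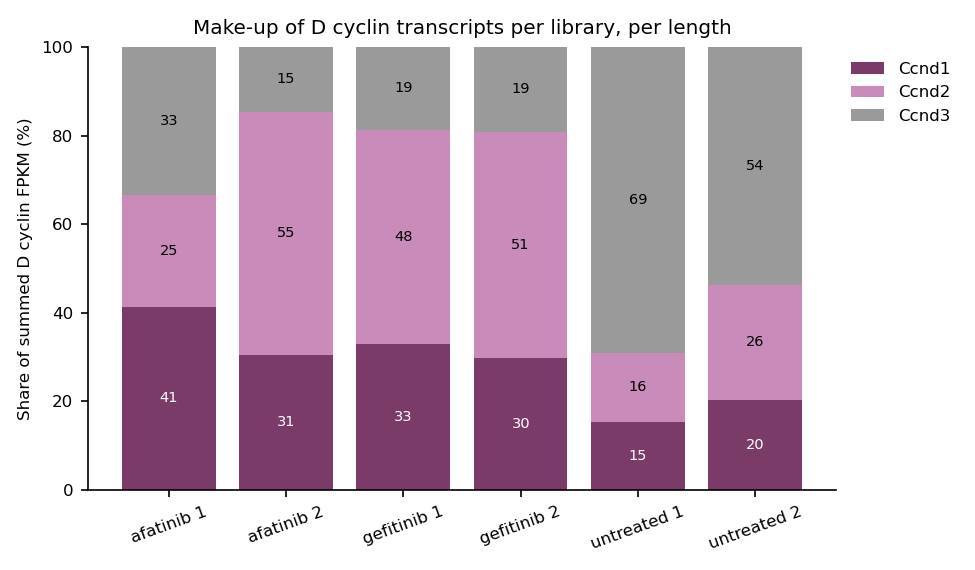
Share of each D cyclin in the summed FPKM of Ccnd1, Ccnd2 and Ccnd3, as stacked bars that add to 100% in each library. Ccnd3 is the largest part in both untreated libraries (69.1% and 53.7%) and the smallest in afatinib replicate 2 and both gefitinib libraries.

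Cdk4 (ENSRNOG00000025602, chromosome 7, 70349863 to 70352418), the catalytic partner of the D cyclins, stood at 65.3 and 89.4 CPM with afatinib, 133 and 104 CPM with gefitinib and 42.3 and 48.6 CPM in untreated skin. All rash libraries were above both untreated ones, and both gefitinib libraries were above both afatinib ones. Cdk4 rose 2.11-fold in the mean of both drugs (log2 fold change 1.08 ± 0.25, edgeR adjusted p = 0.0313) and 2.61-fold with gefitinib (1.38 ± 0.28, adjusted p = 0.0211). The afatinib value of 0.77 ± 0.28 did not pass (edgeR adjusted p = 0.165). It was 0.97 without afatinib replicate 1 and 0.46 without afatinib replicate 2. The averaged call was lost without gefitinib replicate 1 (0.104) or 2 (0.0807), or untreated replicate 1 (0.208) or 2 (0.182), and its adjusted p was 0.0522 with the replicate number as a block. The gefitinib call was lost without the same libraries (0.114, 0.0842, 0.137 and 0.127). In the files' annotation 168 bases of Cdk4 overlap Tspan31 on the other strand. That locus held 918 to 1942 counts per library, and since the strand of counting is not given, reads in the overlap cannot be assigned with certainty.

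Cdk6 (ENSRNOG00000009258), the other kinase of the D cyclins, was scarce. Its counts were 24 and 119 with afatinib, 89 and 60 with gefitinib and 31 and 27 in untreated skin, or 1.56 and 4.59, 3.49 and 2.62, and 2.14 and 1.57 CPM. Afatinib replicate 1 lay below both untreated libraries and the other rash libraries above them. The averaged log2 fold change of 0.73 ± 0.54 did not pass (edgeR adjusted p = 0.361). Per length Cdk4 exceeded Cdk6 by a log2 ratio of 5.77 ± 0.52 in the rash libraries and 5.34 ± 0.46 in the untreated ones (SD, n = 4 and 2; exact two-sided permutation p = 0.4).

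Myc (ENSRNOG00000004500, chromosome 7, 102586313 to 102591240) encodes a transcription factor that drives ribosome production and cell growth. Its level was 36.1 and 43.7 CPM with afatinib, 52.8 and 53.6 CPM with gefitinib and 21.2 and 24.5 CPM in untreated skin. The groups did not overlap, with gefitinib highest and untreated skin lowest. Myc rose 2.02-fold in the mean of both drugs (log2 fold change 1.01 ± 0.21, edgeR adjusted p = 0.023) and 2.33-fold with gefitinib (1.22 ± 0.23, adjusted p = 0.0188). With afatinib it was 0.80 ± 0.23 and did not pass (edgeR adjusted p = 0.099). This value was 0.93 without afatinib replicate 1 and 0.60 without afatinib replicate 2. With 1 library left out, the averaged value ran from 0.88 (without afatinib replicate 2) to 1.12 (without untreated replicate 2). The gefitinib value ran from 1.12 (without untreated replicate 1) to 1.33 (without untreated replicate 2).

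Cdk4 and Myc had the most similar profiles of all pairs of tested genes. After each gene was centred on its own mean, their log2 CPM differed by a root mean square of 0.15 over the 6 libraries, against 0.53 for Ccnd1 and Ccnd2. Ccnd3 and Cdkn1b came next at 0.24. By the same measure the named genes most like Myc, of 12632 compared, were Tmem231 (0.025) and Shmt2 (0.028), the mitochondrial serine hydroxymethyltransferase. Shmt2 stood at 65.1 and 76.0 CPM with afatinib, 94.4 and 90.9 CPM with gefitinib and 37.3 and 43.1 CPM in untreated skin. Nearest to Ccnd1 were Mthfd1l (0.11), a mitochondrial enzyme of one-carbon metabolism, and Tdp1 (0.12), a DNA repair enzyme. Nearest to Ccnd2 were Hspa4l (0.13) and Rnf43 (0.14), the ubiquitin ligase that removes Wnt receptors. These are descriptions over 6 libraries that share their groups.

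Cdkn1a (ENSRNOG00000000521, chromosome 20, 6351458 to 6358864) encodes p21, a broad inhibitor of cyclin-dependent kinases. It stood at 145 and 116 CPM with afatinib, 117 and 159.5 CPM with gefitinib and 78.7 and 79.7 CPM in untreated skin. Each rash library was above both untreated ones, which differed little from each other. The averaged log2 fold change of 0.76 ± 0.25 did not pass (edgeR adjusted p = 0.0783), nor did those for gefitinib (0.80 ± 0.28, adjusted p = 0.0866) and afatinib (0.72 ± 0.28, adjusted p = 0.194). With library size only the averaged value was 1.38 and passed (adjusted p = 0.0174), but relative to the median of all loci it was 0.67. Nearest in profile were Zdhhc6 (0.097) and Siva1 (0.10), a gene known as an apoptosis factor.

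Cdkn1b (ENSRNOG00000007249, chromosome 4, 168689163 to 168693964) encodes p27, which accumulates in resting cells. Its level was 97.0 and 108 CPM with afatinib, 101 and 123 CPM with gefitinib and 131 and 124 CPM in untreated skin. All rash libraries were below both untreated ones, though gefitinib replicate 2 (123 CPM) was close to untreated replicate 2 (124 CPM). The averaged log2 fold change was −0.25 ± 0.22 (edgeR adjusted p = 0.438), with a 95% interval of −0.76 to 0.26. With library size only the value was 0.40, or −0.31 relative to the median of all loci. Nearest in profile to Cdkn1b were Nit2 (0.042) and Fitm2 (0.045).

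Cdkn1c (ENSRNOG00000059500, chromosome 1, 216661080 to 216663721) encodes p57, an inhibitor of differentiating cells whose gene is imprinted in mouse and human. It stood at 13.4 and 11.5 CPM with afatinib, 13.1 and 10.7 CPM with gefitinib and 47.7 and 17.2 CPM in untreated skin. The rash libraries lay close together and below both untreated ones, but untreated replicate 1 was far above untreated replicate 2. Cdkn1c fell by 1.41 on the log2 scale in the mean of both drugs (SE 0.38, edgeR adjusted p = 0.0467). Without untreated replicate 1 the value was −0.50, and without untreated replicate 2 it was −1.97. With a rash library left out it ran from −1.56 (without gefitinib replicate 1) to −1.42 (without afatinib replicate 2). The call was lost with limma-voom (adjusted p = 0.0871) and with library size only (−0.75, adjusted p = 0.218). The value with library size only was −1.46 relative to the median of all loci. The single values of −1.45 for gefitinib (edgeR adjusted p = 0.0694) and −1.38 for afatinib (0.142) did not pass. Untreated replicate 1 also had the highest sums of 7 fibroblast, 6 endothelial, 6 Schwann cell and 13 skeletal muscle markers. Fibroblast markers summed to 8936 and 3239.9 CPM with afatinib, 6172 and 1209.9 CPM with gefitinib and 21407 and 10155 CPM in untreated skin. For endothelial markers the sums were 323 and 284, 232 and 84.3, and 493 and 409 CPM in the same order. Schwann cell markers summed to 245 and 151 CPM with afatinib, 201 and 112 CPM with gefitinib and 1304 and 859.9 CPM in untreated skin, and the muscle sums are given above. The part of these 4 cell types in the Cdkn1c values was not tested.

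Cdkn2a (ENSRNOG00000059837, chromosome 5, 107823330 to 107841175), the locus of p16 and ARF, was at the edge of detection. It had 3 and 0 counts with afatinib, 3 and 3 counts with gefitinib and 0 and 0 counts in untreated skin. A count of 0 allows up to 3 counts, or 0.207 and 0.174 CPM in the untreated libraries and 0.116 CPM in afatinib replicate 2, so no difference was detectable at this depth. This limit covers counting error only.

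Per length, Cdkn1b and Cdkn1a stood closer to Ccnd1 in rash skin than in untreated skin. The ratios are built on the Ccnd1 values given above and are not separate evidence of a change in the inhibitors. The log2 ratio of Cdkn1b to Ccnd1 was 1.22 and 0.65 with afatinib, 0.47 and 1.32 with gefitinib and 3.47 and 2.81 in untreated skin. All 4 rash libraries were below both untreated ones, with a mean difference of −2.23 (exact two-sided permutation p = 0.133, the smallest 4 against 2 libraries can give). For Cdkn1a to Ccnd1 the ratio was 1.65 and 0.60 with afatinib, 0.52 and 1.54 with gefitinib and 2.59 and 2.02 in untreated skin (exact permutation p = 0.133). The summed FPKM of Cdkn1a, Cdkn1b and Cdkn1c was 133 ± 17.3 in the rash libraries and 131 ± 12.6 in untreated skin (SD, n = 4 and 2; exact permutation p = 0.933). These ratios hold within a library and do not depend on the scaling between libraries, but the sum does.

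The order of levels per length differed between rash and untreated skin. In afatinib skin the order was Cdk4 (81.4 ± 16.2 FPKM, SD of 2 libraries), Cdkn1a (64.6 ± 11.8), Cdkn1b (56.1 ± 2.88), Ccnd2 (40.6 ± 37.1), Ccnd1 (30.2 ± 9.81), Ccnd3 (18.3 ± 0.78), Myc (14.3 ± 1.60), Cdkn1c (5.87 ± 0.76), Cdk6 (1.96 ± 1.33) and Cdkn2a. Gefitinib skin had the same order, from Cdk4 at 128 ± 19.7 FPKM and Cdkn1a at 70.0 ± 16.4 FPKM to Cdk6 at 2.01 ± 0.37 FPKM. In untreated skin Cdkn1b led (73.6 ± 2.47 FPKM), followed by Cdk4 (50.4 ± 5.09), Cdkn1a (41.1 ± 0.49), Ccnd3 (28.8 ± 2.61), Cdkn1c (16.1 ± 10.6), Ccnd2 (9.99 ± 4.29), Myc (8.60 ± 0.90), Ccnd1 (8.50 ± 2.42) and Cdk6 (1.26 ± 0.27), with Cdkn2a listed at 0. In untreated skin the library values of Cdkn1c, Ccnd2, Myc and Ccnd1 overlapped, so their order is not resolved. In afatinib skin Cdk4 overlapped Cdkn1a, Cdkn1a overlapped Cdkn1b, and Ccnd2 overlapped its neighbours on both sides. In gefitinib skin the overlapping neighbours were Cdkn1a with Cdkn1b, Cdkn1b with Ccnd2, and Ccnd3 with Myc.

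Across all tested loci, 27.2% had all 4 rash libraries above both untreated ones and 18.8% had all 4 below. Of the 9 tested genes 5 were above (Ccnd1, Ccnd2, Cdk4, Myc and Cdkn1a) and 3 below (Ccnd3, Cdkn1b and Cdkn1c), with Cdk6 mixed.

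Afatinib against gefitinib asks whether the inhibitors differ, at unequal doses. In edgeR 0 of the 9 genes passed, and 0.00% of all loci did, with 0 of the 9 genes and 946 loci at an unadjusted p under 0.05. DESeq2 called 0 of the 9 and 30 loci, and limma-voom 0 and 0. The log2 difference for Cdk4 was −0.62 (95% interval −1.26 to 0.03, edgeR adjusted p = 0.787), and for Myc −0.41 (−0.95 to 0.12, adjusted p = 0.787). In both genes the 2 afatinib libraries lay below the 2 gefitinib ones, and in the other tested genes they overlapped. The share of all loci with such an order was not computed, so no difference between the drugs is read from it. For Ccnd1 the difference was −0.15 (−1.0 to 0.70) and for Ccnd2 −0.37 (−1.89 to 1.16), intervals wide enough to hold a difference of 2-fold or more in Ccnd2 in either direction. These limits do not show that the inhibitors act alike.

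Other genes of the G1 network were read from lists chosen with earlier results of these data known. Of all loci, 11.0% rose and 4.93% fell in the mean of both drugs. Of 4 other CDK inhibitor genes 3 were in the table, and all 3 rose in the mean of both drugs (median log2 fold change 2.10, against 0.06 for all loci). Cdkn3, a phosphatase that acts on CDK2, rose by 2.12 ± 0.24 (edgeR adjusted p = 0.0108), Cdkn2c (p18) by 1.43 ± 0.33 (adjusted p = 0.0317) and Cdkn2b (p15) by 2.10 ± 0.55 (adjusted p = 0.0439). Of 9 genes of cyclin E, CDK2 and G1/S activation 6 rose and 0 fell (median 1.29). Ccne1, cyclin E1, stood at 7.01 and 14.3 CPM with afatinib, 16.5 and 15.5 CPM with gefitinib and 0.69 and 2.09 CPM in untreated skin (log2 fold change 3.21 ± 0.56, edgeR adjusted p = 0.0163), and Cks1b, a subunit that helps degrade p27, rose by 1.29 ± 0.23 (adjusted p = 0.0172).

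Of 14 listed genes of the retinoblastoma family and E2F factors 13 were tested. Of these 5 rose and 1 fell (median 0.47), beside 11.0% and 4.93% of all loci. Rbl2, the p130 pocket protein of resting cells, fell by 1.05 (SE 0.23, edgeR adjusted p = 0.0258), and Tfdp1, the E2F partner, rose by 1.17 ± 0.28 (adjusted p = 0.0324). Rbl1 (p107), E2f5, E2f7 and E2f8 also rose, by 1.98 to 2.83 (edgeR adjusted p = 0.0342 to 0.04). Genes beyond the 2 of smallest p in each list were named after their values were seen. In the Myc network 2 of 11 genes rose and 0 fell (median −0.03), not far from the shares of 11.0% and 4.93% of all loci. The 2 were the Myc paralogs Mycn (3.40 ± 0.65, edgeR adjusted p = 0.0197) and Mycl (2.93 ± 0.51, adjusted p = 0.0165). Mycn had 23.3 and 69.3 CPM with afatinib, 75.9 and 88.6 CPM with gefitinib and 2.63 and 8.96 CPM in untreated skin, and Mycl 24.5 and 76.2, 108 and 112, and 7.46 and 12.0 CPM. In both genes every rash library was above both untreated ones, with afatinib replicate 1 the lowest of the 4.

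Of 15 Myc targets in ribosome and polyamine synthesis 7 rose and 0 fell in the mean comparison, and 10 rose with gefitinib and 1 with afatinib (medians 1.02, 1.26 and 0.76), where 11.0%, 12.3% and 3.60% of all loci rose. The afatinib count of 1 in 15 is near its background. The nucleolar proteins Nop58 (1.63 ± 0.27, edgeR adjusted p = 0.015) and Fbl (1.41 ± 0.26, adjusted p = 0.0185) had the smallest p. Among 14 FOXO and other regulators 2 rose and 3 fell (median −0.28), beside 11.0% and 4.93% of all loci. The count of 2 that rose is near its background. The antiproliferative Btg2 fell by 1.73 (SE 0.23, edgeR adjusted p = 0.0121) and Klf6 by 1.36 (SE 0.25, adjusted p = 0.0184). Smad3 also fell, by 1.13, while Btg1 and Pcna rose by 1.30 and 1.53. Foxo1 and Foxo3, transcription factors that can raise Cdkn1b, stood at −0.10 and −0.33 (edgeR adjusted p = 0.86 and 0.598). Calls in these 6 lists were lost with either untreated library left out, in fits that call few loci of any kind. With library size only the medians of the Myc network (0.62) and of the FOXO list (0.39) turned positive, below the shift of 0.72 of all loci. Without untreated replicate 2 the Myc network median was 0.03.

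**Figure D4:**
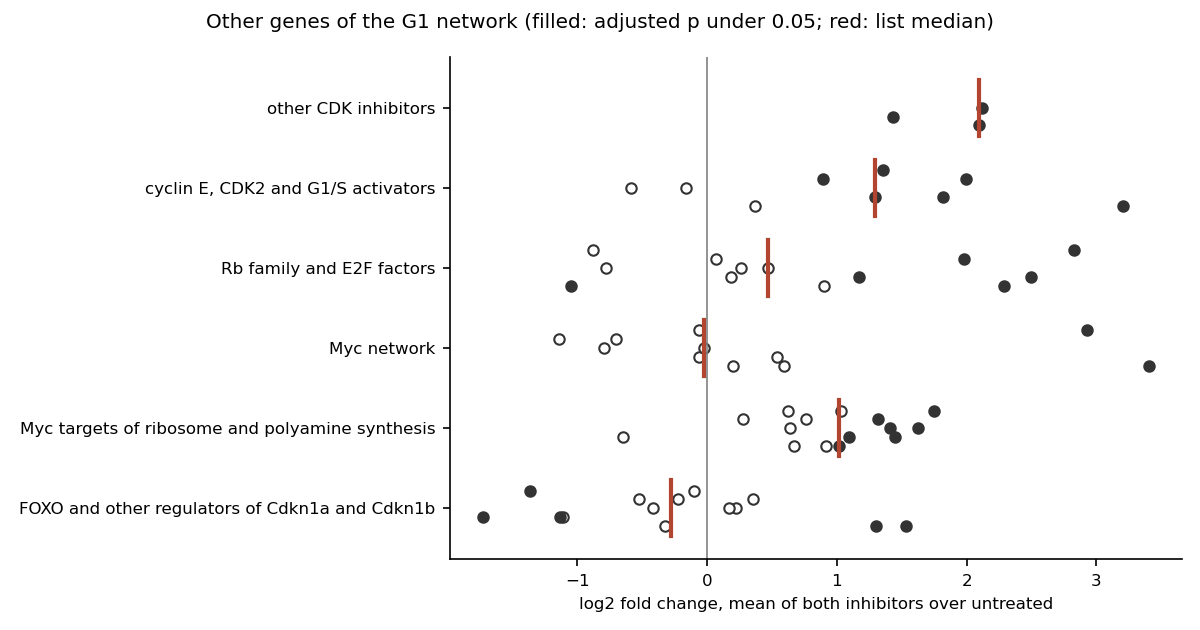
Log2 fold change of other G1 network genes in the mean of both drugs over untreated skin, 1 point per tested gene, filled where the adjusted p is under 0.05; the red bar is the list median. All 3 genes of the top row are filled and right of 0, whereas the FOXO list holds filled points on both sides.

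Markers of dividing cells were higher in the same libraries. Beside the counts below, 11.0% of all loci rose and 4.93% fell in the mean of both drugs. All 6 proliferation markers rose in the mean of both drugs (median 2.75), and their sum was 262 and 488 CPM with afatinib, 603 and 631 CPM with gefitinib and 62.8 and 86.8 CPM in untreated skin. Their order across libraries, gefitinib above afatinib replicate 2 above afatinib replicate 1 above untreated, was also that of Myc and Cdk4. The share of all loci with this order was not computed, so no link is read from it. Basal keratinocyte markers summed to 2449.6 and 4139 CPM with afatinib, 2465 and 2447 CPM with gefitinib and 1526 and 868 CPM in untreated skin, and 2 of 7 (Krt5 and Tp63) rose. All 9 hair matrix and cortex markers rose as well (median 4.14), as did 4 of 5 neutrophil markers, whose sum was 1918 and 1683 CPM with afatinib, 716 and 1273 CPM with gefitinib and 7.81 and 6.69 CPM in untreated skin. In the other lists 5 of 6 Schwann cell and 3 of 6 endothelial markers fell, and 3 of 5 tested markers of differentiated or stressed keratinocytes (Krt16, Krt17 and Sprr1b) and 1 of 5 T cell markers (Lck) rose. In the lists without an edgeR call in the mean of both drugs, the median log2 fold change was −1.71 for 13 skeletal muscle markers. It was −1.36 for 7 fibroblast and −0.13 for 6 smooth muscle and pericyte markers. For 5 adipocyte, 6 macrophage and 4 melanocyte markers it was 1.40, −0.16 and 2.04. With gefitinib alone, 1 smooth muscle and pericyte marker fell. No marker in the table was at 0 in a rash library. At 0 in untreated skin were 2 of 5 neutrophil markers in replicate 2, 1 melanocyte marker in replicate 1 and 1 stressed keratinocyte marker in both. Which of these cells carried the Ccnd1, Ccnd2, Cdk4 and Myc transcripts was not tested. When library sizes and TMM factors were computed without the skeletal muscle markers, the averaged log2 fold changes of Ccnd1, Cdk4 and Myc were 1.98, 1.07 and 1.01. Leaving these 13 loci out of the scaling does not adjust for the muscle held in each library, so it says nothing on tissue make-up.

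**Figure D5:**
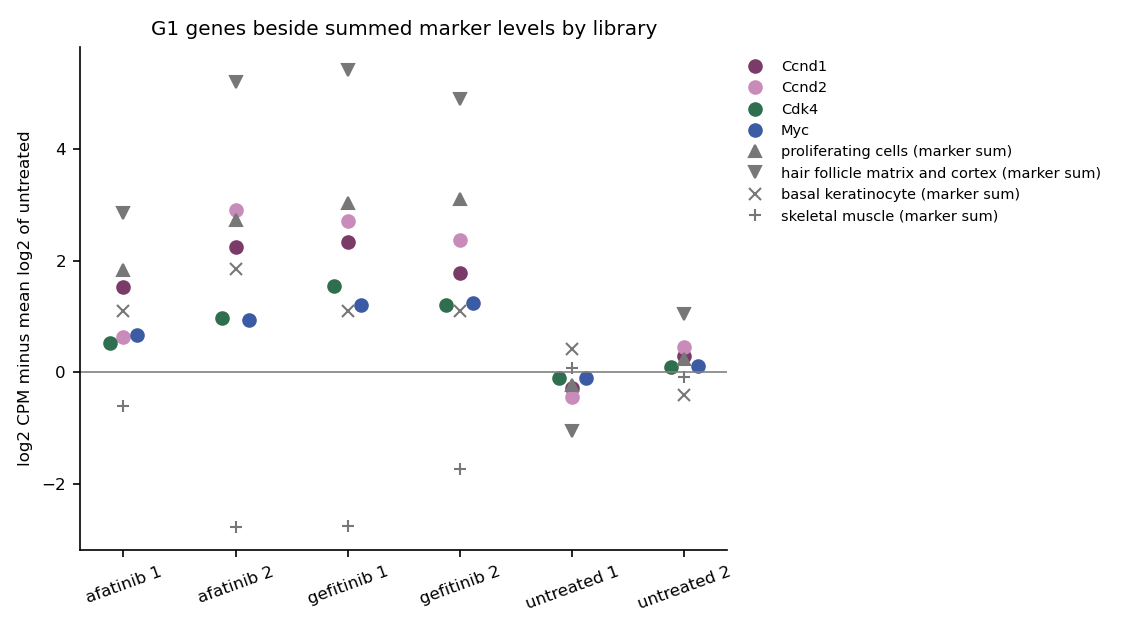
Log2 CPM of Ccnd1, Ccnd2, Cdk4 and Myc (coloured) and of 4 summed marker lists (grey) in each library, less the mean log2 value of the untreated libraries. Hair markers stand highest in every rash library and skeletal muscle markers lowest, with afatinib replicate 1 the rash library nearest to 0 in both.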

How the data were processed

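Messenger RNA from rat back skin was sequenced in 6 libraries, 2 per group. The submitters' processing notes list DESeq2 (1.16.1), featureCounts (1.5.0-p3) and HISAT2 (2.0.5); which step each served, the build and the counting strand are not stated there. Read counts per gene, whole and unscaled, form one deposited table. The deposited FPKM table was checked to be the authors' counts divided by gene length and by 1 divisor per library, proportional to a DESeq2 size factor.

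Loci were filtered with filterByExpr, scaled with TMM and fitted to all 6 libraries together, a term for each group, in edgeR 4.0.16 under R 4.3.3. Two-sided p-values were adjusted over 16398 loci. SEs came from the F statistic. The test was checked on simulated data. Alternatives were DESeq2 1.42.0, limma 3.58.1 (voom, and log2(FPKM + 1) or log2(FPKM + 0.1)), other scalings, no filter, a replicate block and leaving out each library. The 10 genes and all lists were chosen with earlier results of these data known; the 10 were all to be named, with 2 genes of smallest p per list and the 2 nearest in profile. One further pathway list is not reported here.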

Additional observations from a re-analysis of the deposited data

How the results depend on the processing

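Loci passing numbered 2906 for gefitinib, 652 for afatinib, 2618 for their mean and 0 for afatinib against gefitinib, and 4, 1, 4 and 0 of the 9 G1 genes passed. DESeq2 gave 4682, 1992, 4251 and 30 loci, and 3 genes for afatinib. No filter gave 4550, 2083, 4200 and 28 loci, and 3 genes for afatinib. Limma on log2(FPKM + 0.1) gave 1263, 92 and 1243 loci, with 0, 0 and 1 genes. For afatinib, limma-voom gave 34 loci and 0 genes, log2(FPKM + 1) 86 and 0, and library size only 1281 and 2 (1 locus between the drugs). Leaving out 1 library gave 0 to 5320 loci and 0 to 5 genes for gefitinib, 0 to 3653 and 0 to 4 for afatinib, 3 to 5809 and 0 to 5 for the mean, and 0 to 3 loci between the drugs. Replicate numbers did not pair the libraries (correlations of deviations −0.17, 0.037 and 0.033); a replicate block gave 369 loci and 0 genes for afatinib.

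With library size only, Ccnd3 was 0.26, 0.029 and 0.14 and Cdkn1b 0.49, 0.31 and 0.40 for gefitinib, afatinib and the mean, positive in place of negative. Leaving out 1 library at a time, Cdk6 with afatinib ran from −0.30 (without afatinib replicate 2) to 1.30. The differences between the drugs ran from −0.54 to 0.16 for Ccnd1, −1.90 to 0.35 for Ccnd2, −0.34 to 0.027 for Ccnd3, −0.96 to 0.58 for Cdk6, −0.32 to 0.15 for Cdkn1a, −0.31 to 0.0063 for Cdkn1b and −0.085 to 0.19 for Cdkn1c. Between the drugs Cdk6 also turned negative with DESeq2 (−0.017), limma-voom (−0.068), DESeq2 size factors (−0.017), the block (−0.044), log2(FPKM + 1) (−0.096) and log2(FPKM + 0.1) (−0.19), as did Cdkn1c with library size only (−0.039). Without a library, the share difference was 13.2 to 18.3 points for Ccnd1 (23.2 without length scaling), 19.1 to 30.7 for Ccnd2 and −47.6 to −32.3 for Ccnd3, and the log2 ratio difference −2.56 to −1.90 for Cdkn1b and −1.51 to −0.94 for Cdkn1a. The causes were not tested. With 2 libraries per group, and Cdk6 and Cdkn2a at low counts, small differences were not detectable.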
